A study of Rattus norvegicus with 8 samples.

Results

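The 10 chemokine genes described here are *Cxcl1* (NM_030845), *Cxcl2* (NM_053647), *Ccl2* (NM_031530), *Ccl3* (NM_013025), *Ccl4* (NM_053858), *Ccl5* (NM_031116), *Ccl20* (NM_019233), *Cxcl9* (NM_145672), *Cxcl10* (NM_139089) and *Cxcl12* (NM_022177), taken by these RefSeq identifiers on a 2-colour rat microarray of 43379 non-control features. All 10 genes were on the array, as 10 probes and 19 features, since the *Ccl2* probe was printed 10 times and each of the others once. The list was built around *Cxcl1*, which was selected on its low LO/control ratio in the liver, so the liver ratios below are a description without a test. The 10 probes all passed a filter that kept a probe if either channel on 2 or more of the 8 arrays was well above background by the image software's own flag.

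The study asked how lavender oil (LO, from *Lavandula angustifolia*) given into the stomach affects the genes expressed in the liver, spleen and small intestine of male rats. The rats were 7 weeks old, and the labels give their strain as Wistar in one field and as F334 rats in another. In each group 6 rats received 10% ethanol alone (control) or LO at 5 mg/kg in 10% ethanol, daily over 13 days, and the organs were taken on day 14. RNA was pooled within a group, and a control and an LO pool were hybridized together on an array, with LO in Cy5 on array 1 and in Cy3 on array 2 (dye swap). The small intestine (a stretch from the duodenum) and the whole spleen each had 1 pair of pools on 2 arrays, and the liver, sampled as blocks, had 2 pairs, called liver pool 1 and pool 2 here, on 4 arrays. Whether the 2 liver pools came from different rats, different blocks or the same RNA is not given in the sources used here. The spread between them may therefore hold no variation between animals. No array held an untreated rat without ethanol.

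Chemokines are small secreted proteins that direct the movement of leukocytes by binding receptors on their surface. CXC chemokines such as *Cxcl1* and *Cxcl2* draw neutrophils through the receptor Cxcr2, and CC chemokines such as *Ccl2* and *Ccl5* draw monocytes, macrophages and T cells. Most are induced by inflammatory cytokines and microbial products through the transcription factor NF-kB, and *Cxcl9* and *Cxcl10* also by interferon, while *Cxcl12* is made steadily by stromal cells and retains leukocytes in lymphoid tissue and bone marrow. In the liver, *Cxcl1* can be made by hepatocytes, stellate cells, endothelium and Kupffer cells, the resident macrophages.

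RefSeq promoters (build GRCr8) were at hand for 6 of the 10 genes, *Cxcl1*, *Cxcl2*, *Ccl20*, *Cxcl9*, *Cxcl10* and *Cxcl12*. The 250 bases before the gene start are shown for *Cxcl1* and *Cxcl2*, which lie close together on chromosome 14 and of which only *Cxcl1* had a liver signal above background, and for *Cxcl10*, whose level was highest in the spleen. Each is written 5′ to 3′ in the direction of the gene, and capitals mark matches to the consensus motif of NF-kB and to that of the interferon-stimulated response element (ISRE), searched on both strands. The *Cxcl1* promoter lies at chr14:17479322-17479571 on the minus strand, *Cxcl2* at chr14:17467256-17467505 on the minus strand and *Cxcl10* at chr14:15988816-15989065 on the plus strand.
Cxcl1: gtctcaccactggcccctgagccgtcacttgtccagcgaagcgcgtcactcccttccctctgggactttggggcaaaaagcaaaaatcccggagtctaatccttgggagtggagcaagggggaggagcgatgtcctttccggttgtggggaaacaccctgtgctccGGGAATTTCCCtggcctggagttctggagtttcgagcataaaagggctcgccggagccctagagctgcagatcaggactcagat
Cxcl2: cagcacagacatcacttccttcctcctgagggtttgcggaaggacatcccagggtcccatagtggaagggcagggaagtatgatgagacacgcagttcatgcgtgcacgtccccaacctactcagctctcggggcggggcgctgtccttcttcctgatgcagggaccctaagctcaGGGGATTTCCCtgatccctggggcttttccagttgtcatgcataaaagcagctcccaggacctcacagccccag
Cxcl10: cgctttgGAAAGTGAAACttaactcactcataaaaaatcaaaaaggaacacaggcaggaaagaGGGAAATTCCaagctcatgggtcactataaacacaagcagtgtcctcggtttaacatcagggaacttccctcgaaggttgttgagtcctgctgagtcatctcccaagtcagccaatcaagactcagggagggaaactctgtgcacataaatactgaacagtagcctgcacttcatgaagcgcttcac

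The NF-kB motif was in 4 of the 6 promoters, those of *Cxcl1*, *Cxcl2*, *Ccl20* and *Cxcl10*, against 3.54% of 33469 rat promoters of the same length. In the *Cxcl1* promoter overlapping matches on both strands began at -84 and -83 from the gene start. The match at -84 read GGGAATTTCC, and these exact letters were in 23 promoters (0.0687%), *Cxcl1* alone among the 6. The *Cxcl2* promoter held overlapping matches at -74 and -73. *Cxcl10* had an NF-kB match at -187 and an ISRE match at -243, and was the only one of the 6 with the latter, which 1.37% of all promoters held. The exact letters counted at -84 were read from the *Cxcl1* promoter itself, which therefore had to hold them. A match is only a run of letters and was not tested for binding.

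In the liver, the *Cxcl1* signal was lower in the LO pool than in the control pool on all 4 arrays, at about the same ratio in both pools and both dye orientations. In pool 1 the dye-normalized signal intensity was 243.3 in control against 133.3 in LO on array 1, while array 2 gave 320.0 against 158.7. In pool 2 it was 219.3 against 115.7 on array 1, while array 2 gave 208.1 against 89.7. The highest LO signal, 158.7, lay below the lowest control signal, 208.1, over 2 dye orientations of 2 pools. The share of all probes with signals apart in this way was not counted. The log2 LO/control ratio was -0.87 and -1.01 in pool 1, and -0.92 and -1.21 in pool 2. The pool means were -0.94 and -1.07, and the liver mean was -1.004 ± 0.091 (SD, n = 2 pools), a ratio of 0.499. Background correction by normexp with an offset of 50, which draws dim ratios towards 1, gave -0.58.

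**Figure D1:**
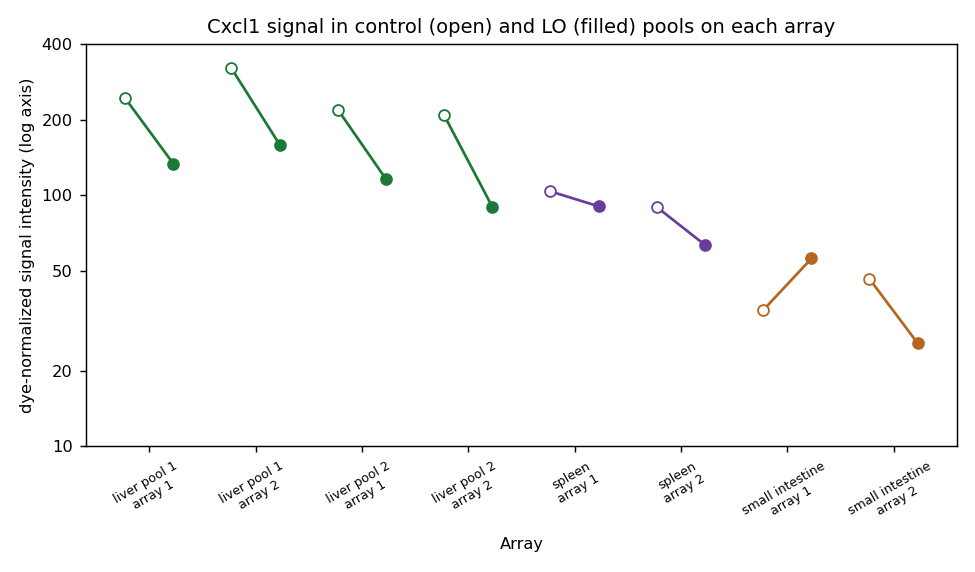
Dye-normalized signal intensity of *Cxcl1* on each of the 8 arrays, on a log axis, with the control pool as an open point joined to the LO pool as a filled point. The liver lines all fall, from 208.1 to 320.0 in control to 89.7 to 158.7 in LO, both spleen lines fall by less, and the small intestine lines run in opposite directions.

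The cut-offs that the methods state were applied to every array of a tissue: Cy5/Cy3 of at least 1.5 or at most 0.75, according to the dye of LO, with the software's P below 0.01. In the liver 2 features passed as down (0.00461% of 43345) and *Cxcl1* was 1 of them, with 2 others up (0.00461%). In the small intestine 5 features passed as up (0.0115%) and 4 as down (0.00923%), and in the spleen 3 as up (0.00692%) and 4 as down (0.00923%), none of them a chemokine of the list. Without the P threshold the counts were 156 up (0.36%) and 153 down (0.353%) in the small intestine, 173 up (0.399%) and 66 down (0.152%) in the spleen, and 9 up (0.0208%) and 11 down (0.0254%) in the liver, and *Cxcl1* in the liver was still the only chemokine of the list among them. *Cxcl1* passed in each liver pool alone as well, with 3 features down in pool 1 and 10 in pool 2. Of the 30592 probes past the filter, 2.96% were lower in LO on all 4 liver arrays and 3.19% were higher. None of the others had a highest liver array as low as the -0.87 of *Cxcl1*, and its mean ranked 20 from the lowest. These values come from the contrast on which *Cxcl1* was chosen, so they are given as a description.

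In the spleen, *Cxcl1* signals were 103.6 in control against 90.3 in LO on array 1, while array 2 gave 89.7 against 63.4. The log2 LO/control ratios were -0.20 and -0.50, lower in LO on both arrays, with a mean of -0.35 (SE 0.092) that did not pass (limma adjusted p = 1, unadjusted p = 0.054). Of all probes, 15.8% were lower in LO on each spleen array and 15% were higher. *Cxcl1* signals in the small intestine were 34.9 in control against 56.0 in LO on array 1, while array 2 gave 46.5 against 25.7, where the LO signal was not well above background. The log2 ratios there were 0.68 and -0.85, so each dye gave the opposite direction, and the mean was -0.08 (SE 0.092, limma adjusted p = 1). The SE comes from the spread between the 2 liver pools, as these alone had a second pair, and it is smaller than the 1.09 SD between the small intestine arrays.

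The other 9 genes showed no ratio of this size that held in both dye orientations. Array 1 and array 2 of a pair, turned to LO/control, were inversely correlated across probes (Pearson r between -0.72 and -0.60, across genes, which are not independent replicates), so in each pair the component that changed sign with the dye orientation was the larger. The SD across probes of this dye component was 0.39 to 0.66 on the log2 scale, against 0.20 to 0.27 for the LO/control mean of a pair, in which it cancels. In the small intestine and spleen, limma called 0 of the 10 genes, and 0 of 30592 probes (0%), at an adjusted p below 0.05. At an unadjusted p below 0.05 it took in 0 of the 10 genes in both tissues, and 1204 probes (3.94%) and 1301 probes (4.25%). For the difference between the spleen and small intestine ratios, 0 of the 10 genes and 0 probes (0%) were called, with 0 genes and 1111 probes (3.63%) at an unadjusted p below 0.05. Fits of the 8 arrays as separate samples called 0 of the 10 genes as well.

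**Figure D2:**
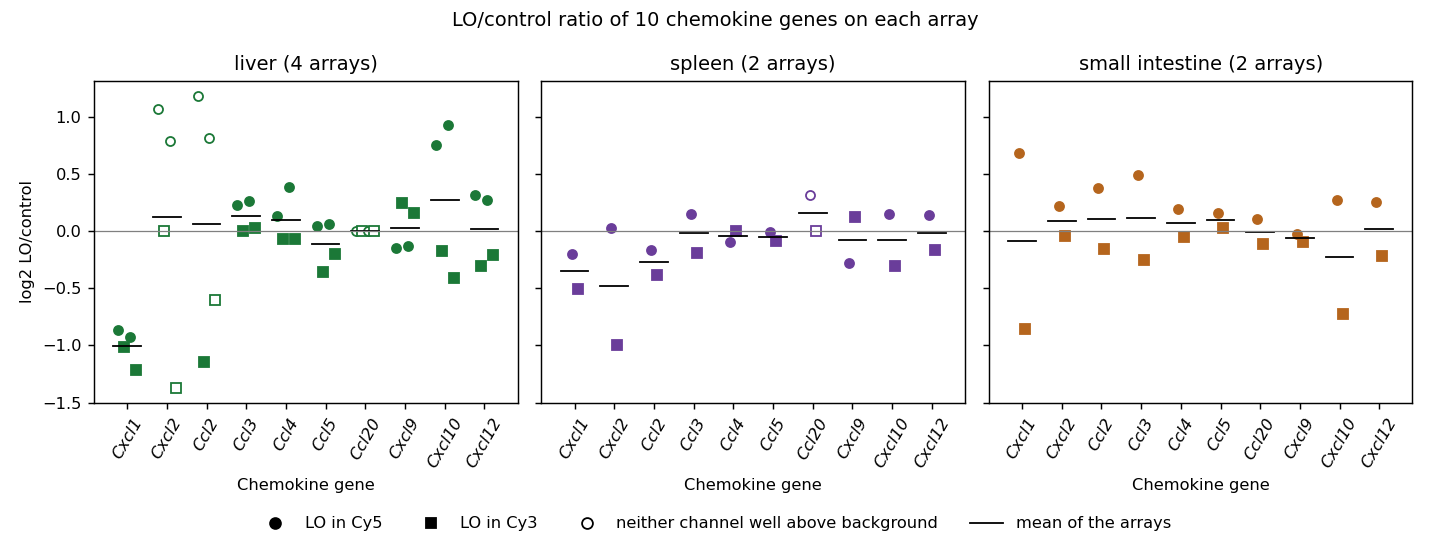
Log2 LO/control of the 10 chemokine genes on each array in the liver, spleen and small intestine, with circles for LO in Cy5, squares for LO in Cy3, open symbols where neither channel was well above background and a line at the mean. *Cxcl1* sits between -1.21 and -0.87 in the liver, while most other genes have circles and squares on opposite sides of 0.

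*Cxcl2*, which like *Cxcl1* attracts neutrophils, was not well above background in either channel on any liver array. Its liver signals ranged from 6.2 to 22.7 in control and from 6.1 to 25.9 in LO, and no ratio is read from them. In the spleen its log2 LO/control was 0.03 and -0.99 and in the small intestine 0.22 and -0.04, with LO not well above background on the second spleen array. *Ccl2*, the main attractant of monocytes, was above background in control on 1 of the 4 liver arrays, and its liver ratios, between -1.14 and 1.19, were positive with LO in Cy5 and negative with LO in Cy3. In the spleen *Ccl2* was lower in LO on both arrays, at 741.7 against 830.5 in control on array 1 and 554.0 against 720.9 on array 2. Those log2 ratios were -0.16 and -0.38, with an SD over the 10 copies of 0.033 and 0.029, and the mean of -0.27 did not pass (limma adjusted p = 1). In the small intestine they were 0.38 and -0.15. In these tissues the SD over the copies was at most 0.036 on an array, and on the liver arrays it was 0.457 to 0.748.

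*Ccl3*, *Ccl4* and *Ccl5* are CC chemokines that attract macrophages and T cells. *Ccl3* was the only one of the 10 genes that was higher in LO on all 4 liver arrays, by 0.23 and 0.01 on the log2 scale in pool 1 and by 0.26 and 0.03 in pool 2, with both higher values on the arrays with LO in Cy5. Its control signals were 155.3 to 245.4 and its LO signals 161.9 to 248.3, which overlapped. *Ccl4* ratios ran from -0.07 to 0.39 in the liver and from -0.09 to 0.01 in the spleen. *Ccl5* ratios ran from -0.36 to 0.07 in the liver. *Ccl5* was slightly lower in LO on both spleen arrays (-0.01 and -0.09) and slightly higher on both small intestine arrays (0.16 and 0.02), and limma called neither (adjusted p = 1). The dye component of the *Ccl5* probe was 0.07 for small intestine and 0.04 for spleen, against LO/control means of 0.09 and -0.05.

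*Ccl20*, which attracts cells bearing Ccr6 to mucosal surfaces, was above background in the small intestine alone, with ratios of 0.11 and -0.11. *Cxcl9* and *Cxcl10* are interferon-induced ligands of Cxcr3 on activated T cells. *Cxcl9* was a little lower in LO on both small intestine arrays (-0.03 and -0.10), as were 12.5% of all probes, and between -0.14 and 0.25 in the liver. *Cxcl10* had the widest dye difference of the genes measured above background in the liver. Its log2 LO/control there was 0.76 and -0.17 in pool 1 and 0.93 and -0.41 in pool 2, with means of 0.29 and 0.26. On single arrays *Cxcl10* would have passed the cut-offs as up in the liver from array 1 of both pools, and as down in the small intestine, at -0.73, from array 2, and it passed in neither tissue once both arrays were asked for. *Cxcl12*, the ligand of Cxcr4, ran from -0.30 to 0.32 in the liver, -0.16 to 0.14 in the spleen and -0.22 to 0.26 in the small intestine. At this probe the ratio was positive with LO in Cy5 and negative with LO in Cy3 in every pair. A second *Cxcl12* probe, under the identifier NM_001033883, ran from -0.09 to 0.40 in the liver and -0.0024 to 0.11 in the spleen. It was higher in LO on both small intestine arrays (0.0057 to 0.13), as were 14.1% of all probes.

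The levels of the genes in the 3 tissues of control rats were not used to choose them, apart from *Cxcl1*, whose liver control signal is part of the ratio it was selected on, so its liver contrasts are described without a p-value. *Ccl20* passed the filter through the small intestine alone, where it is high, so it had to differ and is described in the same way. Both are counted below, and for the other genes tests are given. A level is the log2 signal of a control pool, averaged over its Cy3 and Cy5 channel after scaling between arrays, and levels of different probes are not set against each other. Spleen stood out: 6 of the 10 genes were lower in liver than in spleen and 1 was higher (*Cxcl1*), against 21.5% and 17.1% of all probes (38.6% in all, limma adjusted p below 0.05). In the small intestine 6 genes were lower than in spleen and 1 was higher (*Ccl20*), against 8.7% and 9.15% of all probes (17.9% in all). Between liver and small intestine 3 genes were higher (*Cxcl1* among them) and 2 lower in liver (*Ccl20* among them), against 14% and 15.4% (29.4% in all). The median difference over the 10 genes was -2.04 for liver minus spleen, -2.58 for small intestine minus spleen and -0.13 for liver minus small intestine, and over all probes -0.10, -0.11 and -0.02. The spread in these tests comes from the 2 liver pools only, and the slide numbers of the scanner files put each tissue on a slide of its own, so slide and tissue cannot be told apart.

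Scaling set part of the split over all probes. Of the called probes 44.4% were higher in liver than in spleen, against 54.2% with scaling by the 75th percentile and 25.6% without scaling, and the median over all probes moved to 0.19 and -0.69. For liver minus small intestine the share higher was 47.7%, and 29% without scaling, with medians of 0.19 and -0.45 under the same alternatives. For small intestine minus spleen it was 51.2%, with a median of -0.25 without scaling. The called genes of the list were called under each of these scalings in the same direction.

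**Figure D3:**
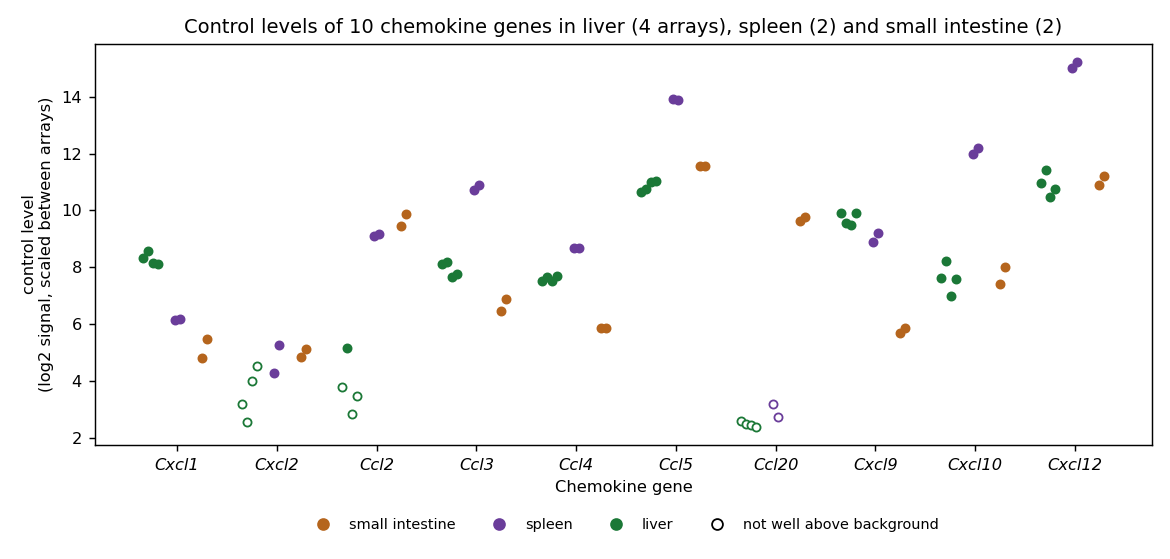
Control level (log2 signal scaled between arrays) of the 10 chemokine genes in the liver (4 arrays), spleen (2) and small intestine (2), 1 point per array, open where the control channel was not well above background. *Cxcl1* is highest in the liver, *Ccl20* is measured only in the small intestine, and *Ccl3*, *Ccl4*, *Ccl5*, *Cxcl10* and *Cxcl12* are highest in the spleen.

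*Cxcl1*, unlike most of the list, had its highest level in the liver. Its control level was 8.11 to 8.58 on the liver arrays, 6.15 and 6.18 on the spleen arrays and 4.80 and 5.48 on the small intestine arrays. Liver exceeded spleen by 2.13 on the log2 scale (SE 0.33, 4.39-fold) and small intestine by 3.15 (SE 0.33, 8.91-fold). Small intestine and spleen differed by -1.02 (SE 0.38), which did not pass (limma adjusted p = 0.159). In LO pools the liver level was 6.89 to 7.57, so it still lay above the 5.68 and 5.95 of the LO spleen, and the differences were 1.48 and 2.23 in LO pools. *Cxcl2* was not well above background in liver control and its levels of 4.76 in spleen and 4.97 in small intestine did not differ by the test (limma adjusted p = 0.904).

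*Ccl2* was high in spleen (9.13) and small intestine (9.66) and mostly below background in liver (3.82, above it on 1 of 4 arrays). Spleen exceeded liver 39.9-fold (limma adjusted p = 0.0158) and small intestine exceeded it 57.6-fold (adjusted p = 0.0165), with log2 differences of -5.32 and -5.85 that were -2.46 and -2.90 with normexp, while spleen and small intestine did not differ by the test (0.53, SE 0.94, adjusted p = 0.775). *Ccl3* had levels of 10.8 in spleen, 7.93 in liver and 6.66 in small intestine, with spleen 7.34-fold above liver (limma adjusted p = 0.00941) and 17.7-fold above small intestine (adjusted p = 0.012). The liver and small intestine levels of *Ccl3* differed by 1.27 (SE 0.35, limma adjusted p = 0.0679). *Ccl4* followed the same order. It was at 8.67 in spleen, 7.59 in liver and 5.88 in small intestine, with spleen 2.12-fold above liver (limma adjusted p = 0.0301), spleen 6.96-fold above small intestine (adjusted p = 0.011) and liver 3.29-fold above small intestine (adjusted p = 0.0141). The *Ccl4* difference between liver and spleen no longer passed without array 1 of each pair (limma adjusted p = 0.0516) or with control pools alone (adjusted p = 0.0983).

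*Ccl5*, made by T cells among others, was at 13.9 in spleen, 11.6 in small intestine and 10.9 in liver. Spleen exceeded liver 8.29-fold (limma adjusted p = 0.00677) and small intestine 5.12-fold (adjusted p = 0.0277), and the latter 2 tissues did not differ by the test (adjusted p = 0.177). *Ccl20* was at 9.61 and 9.78 on the small intestine arrays and not well above background on any spleen or liver array. It was at least 44.8-fold higher in small intestine than in spleen and at least 25.8-fold higher than in liver, each bound set against the dimmest signal that counted as above background.

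*Cxcl9* was at 9.72 in liver, 9.06 in spleen and 5.78 in small intestine. The liver minus spleen difference of 0.66 (SE 0.22) did not pass (limma adjusted p = 0.0851). It was -0.12 without scaling between arrays, and passed with normexp (0.60, limma adjusted p = 0.0189) and with the 16 channels as separate samples (adjusted p = 0.0131). Small intestine lay 9.71-fold below spleen (limma adjusted p = 0.00807) and 15.3-fold below liver (adjusted p = 0.00251). *Cxcl10* was at 12.1 in spleen, 22.8-fold above liver (limma adjusted p = 0.00677) and 21.2-fold above small intestine (adjusted p = 0.0178), with 7.60 in liver and 7.71 in small intestine (adjusted p = 0.877 between these). *Cxcl12* was at 15.1 in spleen, 18.5-fold above liver (10.9, limma adjusted p = 0.00609) and 16.7-fold above small intestine (11.0, adjusted p = 0.0163). The second *Cxcl12* probe (NM_001033883) was at 12.6 in liver, 13.1 in spleen and 9.71 in small intestine. Its liver minus spleen difference of -0.50 did not pass (limma adjusted p = 0.256). Its liver minus small intestine difference was 2.89 (limma adjusted p = 0.00875), against -0.14 at the first probe (adjusted p = 0.812). Both liver results for *Cxcl12* thus depend on the probe. Small intestine lay below spleen at the second probe too (-3.39, limma adjusted p = 0.0131). The counts of genes given above use the first probe.

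Of 27 other chemokine ligands 18 were named on the array and 17 passed the filter. Between liver and spleen control 2 of the 17 were higher and 7 lower in liver, against 17.1% and 21.5% of all probes. In small intestine 5 were higher and 7 lower than in spleen, against 9.15% and 8.7%, and 3 were higher and 8 lower in liver than in small intestine, against 14% and 15.4%. *Cxcl13*, which guides B cells into follicles, was 159-fold higher in spleen than in liver (limma adjusted p = 0.00213), and *Ccl21*, which guides T cells into lymphoid tissue, 53.4-fold higher (adjusted p = 0.00218). *Ccl25*, the gut-homing ligand of Ccr9, was at least 275.1-fold higher in small intestine, the one tissue through which it passed the filter, than in spleen. *Ccl9*, like *Cxcl1*, was higher in liver, at least 94.9-fold over spleen (limma adjusted p = 0.000985).

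Of 22 chemokine receptors 16 were named and 14 passed. None was higher and 8 were lower in liver than in spleen (17.1% and 21.5% of all probes), and none was higher and 6 were lower in small intestine than in spleen (9.15% and 8.7%). *Cxcr2* and *Ackr2*, a scavenger of CC chemokines, passed the filter through the spleen alone, so their place in these counts is no support. *Ccr6*, the receptor of *Ccl20*, was 19.4-fold higher in spleen than in small intestine (above background there on 1 of 2 control arrays, limma adjusted p = 0.0176), the tissue where *Ccl20* was measured. *Cxcr3*, the receptor of *Cxcl9* and *Cxcl10*, was 12.6-fold higher in spleen than in liver (limma adjusted p = 0.00404). The *Cxcr2* signal was above background in spleen control only, at least 1.25-fold over liver.

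For LO/control, limma called none of these 17 ligands and 14 receptors in the small intestine or spleen, and none in the liver, against 0% of all probes there too (1778 probes, 5.81%, at an unadjusted p below 0.05). The median log2 LO/control in the liver was -0.06 for the other ligands and -0.08 for the receptors, against -0.00043 for all probes. *Cxcl13* was the only ligand outside the 10 genes that was lower on all 4 liver arrays, with a mean of -0.30 between -0.75 and -0.04. No receptor was on 1 side of 0 on all 4 liver arrays. In the spleen 6 of the 14 receptors were lower in LO on both arrays, where 15.8% of all probes were, with *Ccr2* (-0.18) and *Ackr2* (-0.16) the lowest of them, and *Cxcr2* was higher on both (0.17). In the small intestine 5 ligands and 5 receptors were higher in LO on both arrays, where 14.1% of all probes were, the receptors being led by *Ackr2* (0.78), *Ccr2* (0.41) and *Ccr6* (0.29), which were above background in control on 0, 1 and 1 of the 2 arrays. *Ackr2*, *Ccr2* and *Ccr6* (-0.11 in the spleen) lay on opposite sides of 0 in spleen and small intestine, a difference that limma called for no receptor. The *Ackr2* value in the small intestine comes from background. Among the ligands, *Ccl9* (0.28, above background in control on 1 of 2 arrays), *Pf4* (0.15) and *Ccl25* (0.10) led in the small intestine. Those that led in the spleen were *Cxcl14* (0.14, above background in control on 1 of 2 arrays), *Ccl17* (-0.10) and *Ccl6* (-0.09).

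Of 16 inducers and regulators of chemokines 11 were named and all 11 passed, and limma called none for LO/control. *Il1b*, the cytokine interleukin-1 beta that induces *Cxcl1*, was lower in LO on all 4 liver arrays, with a mean log2 LO/control of -0.21 between -0.36 and -0.09, and its second probe gave -0.24 between -0.30 and -0.14. It was also lower on both spleen arrays, with a mean of -0.13 at the first probe and -0.06 at the second. *Tnf* was not above background in liver, *Il6* was so on 1 of 4 control arrays, and *Cd14*, a co-receptor for bacterial lipopolysaccharide, had a liver mean of -0.12 between -0.39 and 0.19. Of the inducers, *Ifng* (-0.34) and *Il1b* were lower in LO on both spleen arrays, and *Irf1* (-0.12) on both small intestine arrays. Between control tissues 2 of the 11 were higher and 6 lower in liver than in spleen, against 17.1% and 21.5% of all probes. *Tnf* and *Ifng*, both among the lower ones, passed the filter through the spleen alone, so their place in this count is no support. *Cd14* was 6.28-fold higher in liver than in spleen (limma adjusted p = 0.00912) and *Il1a* 4.08-fold (adjusted p = 0.00841), while *Il1b* was 9.01-fold higher in spleen (adjusted p = 0.00546).

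**Figure D4:**
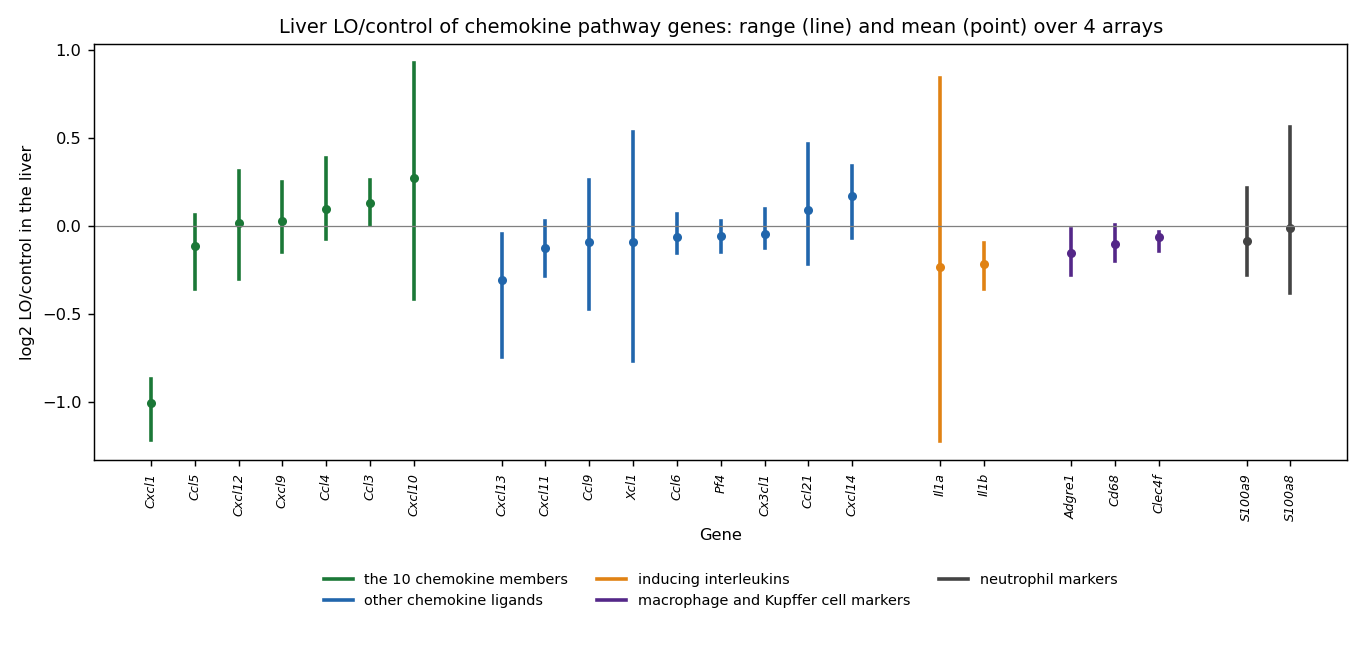
Log2 LO/control in the liver, as the mean (point) and range over 4 arrays (line), for the genes of 5 lists (the 10 chemokines, other ligands, the interleukins among the inducers, and markers of macrophages and neutrophils) that were well above background in control on all 4 liver arrays. *Cxcl1* has the lowest mean, at -1.004, and *Cxcl13*, *Il1b*, *Adgre1* and *Clec4f* have ranges that stay below 0.

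Markers of other cells were set beside the liver value of *Cxcl1*, because in bulk tissue fewer cells of a type and less RNA per cell cannot be told apart. Of 6 markers of macrophages and Kupffer cells 3 were named. *Adgre1* (mean log2 LO/control -0.15) and *Clec4f* (-0.06) were lower in LO on all 4 liver arrays, as were 2.96% of all probes, and *Cd68* was at -0.10. The summed signal of these 3 in LO was 0.904 to 0.973 of control on the 4 liver arrays. Such sums are of unlogged signals, so the brightest marker weighs most. Here that was *Clec4f*, with a liver control level of 14.8, against 11.5 for *Cd68* and 9.88 for *Adgre1*. Of 5 neutrophil markers 2 were named, *S100a8* and *S100a9*, with a summed ratio of 0.814 to 1.28. The summed ratio was 0.826 to 1.20 for hepatocyte, 0.887 to 1.17 for fibroblast and stellate cell, and 0.897 to 1.07 for endothelium markers. The endothelium sum was mostly *Kdr*, at a liver control level of 12.6, with *Pecam1* at 4.49. The hepatocyte gene *Cyp2e1* (-0.12) was also lower in LO on all 4 liver arrays. The part of these cells in the *Cxcl1* value was not tested. In the LO spleen pool, summed hepatocyte markers were 1.14 and 1.85 times control on the 2 arrays (508.1 and 625.3 in control), against 529600 to 626500 in liver control, and their part in the spleen ratios was not tested.

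Of the tissue markers, the albumin gene *Alb* was at 17.3 in liver and 8.47 in spleen, where its other probes were at 5.53 and 5.08. The enterocyte gene *Fabp2* was at 17.3 in small intestine, 8.75 in liver and 3.05 in spleen. The B cell gene *Cd79b* was at 14.3 in spleen and 5.18 in liver. Some markers were shared between tissues. The hepatocyte marker *Apoa1* was at 17.1 in small intestine and 16.4 in liver. The enterocyte marker *Cdh17* was at 15.6 in small intestine and 13.1 in liver. Liver arrays had 44.3% to 48.9% of features that both channels measured well above background, and the other arrays 56.6% to 64.7%, so more liver ratios came from dim signals.

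Over the 8 pools, the 5 gene symbols whose level was most like that of *Cxcl1* were *Orc5*, *Polr2f*, *Il33*, *Vps33a* and *Clec14a*, with a Pearson correlation of 0.970 to 0.986. The pools share arrays and 3 tissues, so the correlation is given as a description. The 5 genes were picked on these levels, LO pools included, so their order of tissues and their liver ratios are not independent of that choice. *Il33* was at 8.81 in liver, 7.29 in spleen and 6.09 in small intestine. It was lower in LO on all 4 liver arrays, as were 2.96% of all probes, with a mean log2 ratio of -0.34. *Orc5* and *Clec14a* were lower on 2 of 4 liver arrays, and *Polr2f* and *Vps33a* on 3.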

How the data were processed

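The 8 arrays were Agilent whole-genome rat 4x44K arrays, scanned and extracted by the authors with Agilent Feature Extraction 11.0.1.1. Per the file headers, the log10 ratio of Cy5 over Cy3 that the authors deposited was background-subtracted and dye-normalized (loess) within each array. The authors also deposited the processed signal intensity of each channel, the median pixel intensity before correction, and a p-value for each log10 ratio from an error model of a single array, which holds no variation between animals. The deposited series table repeats these log10 ratios (equal within 0.0001 on all 8 arrays wherever the ratio was not 1) and served only as a check.

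Log10 ratios were turned to log2 LO/control by the dyes in the labels. Control features and 34 features flagged as non-uniform were left out, copies of a probe were averaged (40979 probes), and 30592 probes were kept because 2 or more arrays measured them well above background in either channel. Copied probes counted as above background where 50% or more of the copies were. The number of arrays and rats limits the precision, and 0 features were saturated.

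The dye-swapped arrays of a pair held the same 2 pools of RNA and counted as 1 replicate. LO/control was fitted with limma 3.58.1 (R 4.3.3) on 4 pair means, with 1 residual degree of freedom from the 2 liver pools. Levels were fitted on 8 pools with 2 residual degrees of freedom after Aquantile scaling of the signals. P-values were adjusted by Benjamini-Hochberg over all 30592 probes at a threshold of 0.05, and measure only the spread between these pools. The fits were tested on simulated data. Further tools were Python 3.11.15, pandas 2.3.3, numpy 2.4.6 and matplotlib 3.10.9.

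Symbols came from RefSeq by identifier (10760 probes, 8895 symbols), so list genes not named here may still have a probe. The 10 genes and the lists were chosen with earlier results of these data known. Genes named from a list were those at least 1 apart on the log2 scale with an adjusted p below 0.05 between control tissues, up to 5 per list and contrast, or the 3 with the largest mean LO/control on 1 side of 0 on every array of a tissue. Of several probes of a gene the brightest stood for it. The bound for a dim probe used, per array, the higher of its own signal and the lowest signal well above background. *Cd14*, *Ccr6* and *Cxcr2* as receptors, the genes at background, and *Cd68*, *Fabp2*, *Alb* and *Cd79b* were named for their role, after their values were seen, and some items are not reported here. Alternatives were each replicate left out, arrays as separate samples with and without a replicate block, normexp with loess, other scalings, other filters, LO pools in place of control pools, each liver pool alone and an adjusted p below 0.01.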

Additional observations from a re-analysis of the deposited data

How the results depend on the processing

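Leaving out array 1 or array 2 of each pair leaves the other orientation, and limma then called 0 of the 10 genes for LO/control in the small intestine and spleen. The mean log2 LO/control in the small intestine ranged between the orientations from -0.85 to 0.68 for *Cxcl1*, -0.0397 to 0.22 for *Cxcl2*, -0.15 to 0.38 for *Ccl2*, -0.25 to 0.50 for *Ccl3*, -0.0470 to 0.20 for *Ccl4*, -0.11 to 0.11 for *Ccl20*, -0.73 to 0.27 for *Cxcl10* and -0.22 to 0.26 for *Cxcl12*. In the spleen it ranged from -0.99 to 0.0307 for *Cxcl2*, -0.19 to 0.15 for *Ccl3*, -0.0910 to 0.00616 for *Ccl4*, 0 to 0.31 for *Ccl20*, -0.28 to 0.13 for *Cxcl9*, -0.30 to 0.15 for *Cxcl10* and -0.16 to 0.14 for *Cxcl12*. In the liver *Cxcl1* ranged from -1.11 to -0.90 and *Ccl3* from 0.02 to 0.25, while *Cxcl2* (-0.69 to 0.93), *Ccl2* (-0.87 to 1.003), *Ccl4* (-0.07 to 0.26), *Ccl5* (-0.28 to 0.06), *Cxcl9* (-0.14 to 0.20), *Cxcl10* (-0.29 to 0.84) and *Cxcl12* (-0.25 to 0.30) changed sign between the orientations. By the cut-offs of the methods, 2 genes in place of 1 passed over the 3 tissues without array 1 and without array 2, *Cxcl10* being the added gene each time.

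Normexp with loess gave 0.0905 for *Cxcl1* in the small intestine and -0.0510 for *Ccl20* in the spleen. Among all probes its calls numbered 150 for liver, 108 for spleen, 32 for small intestine and 23 for the difference of spleen and small intestine, each in place of 0, and the cause was not tested. Fits of 8 arrays as separate samples, with or without the replicate block, called 1 probe in the small intestine in place of 0. The block of dye orientation changed no other call for LO/control of the 10 genes.

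For levels, an adjusted p below 0.01 left 4 of 7 genes for liver minus spleen, 2 of 7 for small intestine minus spleen and 3 of 5 for liver minus small intestine, and 4772, 1265 and 3039 probes. Fitting 16 channels with the replicate block, which takes channels of the same pool as separate samples, called 19540, 13916 and 17657 probes, and 8, 8 and 7 of the 10 genes. Directions turned for differences that had not passed: *Ccl20* liver minus spleen was 0.61 with scaling by the 75th percentile, *Cxcl9* liver minus spleen -0.12 without scaling, *Cxcl10* liver minus small intestine 0.0635 with normexp and 0.40 in LO pools, and *Cxcl2* small intestine minus spleen ran from -0.15 to 0.58 between the replicates left out. The replicate number marks only the dye orientation here. A random block for pools on shared arrays gave no estimate of the correlation and was not run, and a fit of control pools alone, added after seeing the data, lost *Ccl4* for liver minus spleen. Depth limits *Cxcl2*, *Ccl2* and *Ccl20* in the liver, whose ratios come from signals near background.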
